A study of Mus musculus with 6 samples.

Results

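Transcripts of 9 leukocyte adhesion molecules were followed in lineage-depleted bone marrow cells after treatment with DEK. The 9 genes were taken by name from a deposited table of read counts for 24421 genes. They are 4 genes of the immunoglobulin type (Icam1, Icam2, Mcam and Pecam1), 4 integrin subunits (Itgal, Itgam, Itgb2 and Itga4) and the selectin ligand Selplg. All 9 had a row in the table, and all 9 passed the filter on low counts. The groups were 3 libraries of cells given DEK and 3 libraries of cells given vehicle, numbered 1 to 3 in each group. All 6 came from C57BL/6 mice labelled Dek -/-, so both groups lack the cells' own intact Dek gene by their labels. Marrow was flushed from the femur and passed over 2 columns in sequence that remove cells carrying lineage markers. The comparison asks which transcripts differ when such cells are supplied with DEK from outside. The labels give no dose, length of treatment, age or sex, and whether each library is a separate animal is not stated.

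Leukocytes slow down on vessel walls when selectins bind sugar-bearing ligands such as the product of Selplg, and they come to a firm stop when integrins bind immunoglobulin-type ligands. Itgb2 encodes the beta chain shared by the leukocyte integrins, which pairs with the alpha chain of Itgal to form LFA-1 and with that of Itgam to form Mac-1. The proteins of Icam1 and Icam2 are ligands of LFA-1, and that of Icam1 also binds Mac-1. The alpha chain of Itga4 pairs with the product of Itgb1 to bind VCAM-1 and fibronectin, a contact that holds blood progenitors in marrow. Pecam1 encodes a molecule of cell junctions that leukocytes use when they cross endothelium. Mcam encodes a molecule best known from endothelium, pericytes and melanoma cells.

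Promoter windows are shown for Icam1 and Mcam, since these were the members called after DEK in the fit that compares libraries of equal replicate number. The windows are RefSeq sequence of build GRCm38.p6, plus strand, with 250 bases before and 50 after the RefSeq gene start. For Mcam this is also the start in the deposited table, while for Icam1 RefSeq's start (21015940) lies 20 bases upstream of the table's. The windows span chr9:21015690-21015989 for Icam1 and chr9:44134408-44134707 for Mcam. Capitals mark GGAAATTCC in Icam1, the core of the NF-kB site known from the human ICAM1 promoter, and GGGCGG, the core of the Sp1 motif, in Mcam, each searched on both strands.
Icam1: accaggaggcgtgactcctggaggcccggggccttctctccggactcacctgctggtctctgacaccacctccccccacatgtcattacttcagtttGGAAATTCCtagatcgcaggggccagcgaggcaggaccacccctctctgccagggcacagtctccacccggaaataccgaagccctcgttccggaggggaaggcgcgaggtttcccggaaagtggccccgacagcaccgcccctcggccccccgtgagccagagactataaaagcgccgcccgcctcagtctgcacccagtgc
Mcam: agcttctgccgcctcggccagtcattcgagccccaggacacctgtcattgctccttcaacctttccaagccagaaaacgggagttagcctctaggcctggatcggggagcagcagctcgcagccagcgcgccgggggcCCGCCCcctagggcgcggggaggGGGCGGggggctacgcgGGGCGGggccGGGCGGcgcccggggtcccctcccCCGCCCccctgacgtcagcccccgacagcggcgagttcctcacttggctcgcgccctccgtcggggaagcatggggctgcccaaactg
GGAAATTCC occurred at 1 place in the Icam1 window, from base -153 to base -145 on the plus strand counted from the RefSeq start, and at none in the Mcam window. It was chosen as a motif after the Icam1 window had been read. Of 32851 such windows of mouse genes, 104 (0.317%) held it. Another NF-kB pattern, GGGA and TTCC with any 2 bases between them, was in 1.47% of all windows and in neither of these. The Icam1 match is not an instance of this pattern, and further variants of the NF-kB site were not searched. GGGCGG occurred at 5 places in the Mcam window and at 2 in the Icam1 window, and 35.7% of all windows held it. A match describes these letters and does not show that a factor binds there. Windows were found for 4 of the 9 members, with Itgam and Itga4 besides Icam1 and Mcam, and neither NF-kB pattern was in the windows of Itgam and Itga4. GAGGAA, a core bound by PU.1, occurred at 3 places in the Itgam window and 1 in the Mcam window, and in 28.3% of all windows.

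Library totals ran from 34875736 to 49128378 reads counted in genes. The knocked-out gene itself, Dek, had 781, 869 and 712 counts in the DEK libraries and 863, 672 and 733 in the vehicle libraries. The labels do not say which part of it was removed, so this sum over the whole gene does not check the genotype. Stem and progenitor markers such as Kit, Cd34 and Myb were present in all 6 libraries, and 9 of the 9 on that list averaged at least 1 CPM (counts scaled to an equal library size, here with TMM factors). Replicate 3 differed from replicates 1 and 2 in each group, and vehicle replicate 1 held 48422 CPM of the ribosomal precursor gene Rn45s, against 1512 to 3207 CPM in the other 5 libraries. Neutrophil markers such as S100a8, S100a9 and Ltf summed to 7433, 5676 and 60626 CPM in DEK replicates 1, 2 and 3, and to 6535, 5971 and 64344 CPM in vehicle replicates 1, 2 and 3. In bulk RNA, fewer cells of a type and less RNA per cell cannot be told apart. Equal replicate numbers deviated together, so a fit with the number as a block is given beside the fit without it. The fit with the block is called "within pairs", although no label gives pairs. Deviations correlated at 0.55 and 0.56 for equal numbers 1 and 2, and at 0.52 and 0.41 for unequal ones. The data thus set number 3 apart more clearly than they pair numbers 1 and 2. Without the block, edgeR's quasi-likelihood test called 0 of 13803 genes (0%) at an adjusted p under 0.05, 360 (2.61%) had an unadjusted p under 0.05, DESeq2 called 58 and limma-voom 0. The fit within pairs gave 177 calls (1.28%), of which 120 were higher after DEK (0.869%) and 57 lower (0.413%).

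Icam1 rose after DEK within pairs, and it was the member with the clearest separation of the groups. The gene lies on chromosome 9 from 21015960 to 21028796 on the plus strand (mm10), with 7 exon blocks that no other gene of the table overlaps. It stood at 117, 162 and 123 CPM in DEK replicates 1, 2 and 3, and at 75.2, 63.5 and 51.5 CPM in vehicle replicates 1, 2 and 3. Every DEK library was above every vehicle library, as held in this direction for 3.78% of all genes tested. The mean was 134 ± 24.3 CPM with DEK and 63.4 ± 11.8 CPM with vehicle (SD, n = 3 each). The change was 2.12-fold within pairs (log2 fold change 1.08 ± 0.14, SE; adjusted p = 0.0107, edgeR), and log2 CPM differed by 0.64, 1.35 and 1.26 in pairs 1, 2 and 3. Without the block the fold was the same size (log2 1.08 ± 0.19, SE), but it did not pass over all genes (adjusted p = 0.494, edgeR; unadjusted p = 0.00100). DESeq2 called it without a block (adjusted p = 0.000763).

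The Icam1 call within pairs ended when pair 2 was left out (log2 fold change 0.96, adjusted p = 0.452, edgeR), a setting in which no gene at all was called. It held without pair 1 (1.30, adjusted p = 0.000404, edgeR) and without pair 3 (1.00, adjusted p = 2.38e-13, edgeR). A fit without 1 pair has only 2 pairs left, so its p-value rests mostly on the spread that edgeR pools over genes. Such a p-value is not stronger evidence than that from all 3 pairs. Monocyte and macrophage markers, a list of 11 genes with Csf1r, Adgre1 and Cx3cr1 among them, summed to 6379, 6611 and 5725 CPM in DEK replicates 1, 2 and 3, and to 5529, 5716 and 4804 CPM in vehicle replicates 1, 2 and 3. These sums did not overlap either, by a narrow margin. They are led by Ly6c2, at 2277, 2501 and 2761 CPM with DEK, and at 1698, 1714 and 1892 CPM with vehicle. Ly6c2 was the only 1 of the 11 whose groups did not overlap with DEK higher, and 2 did not overlap with DEK lower. Over all genes tested these shares were 3.78% and 3.41%. Of the 11, 2 were called higher and 3 lower within pairs, against 0.869% and 0.413% of all genes tested. Only 3 of the 11 had log2 fold changes above 0. In pairs 1, 2 and 3, 7, 8 and 6 of the 11 markers were lower with DEK. Their part in the Icam1 result was not tested.

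**Figure D1:**
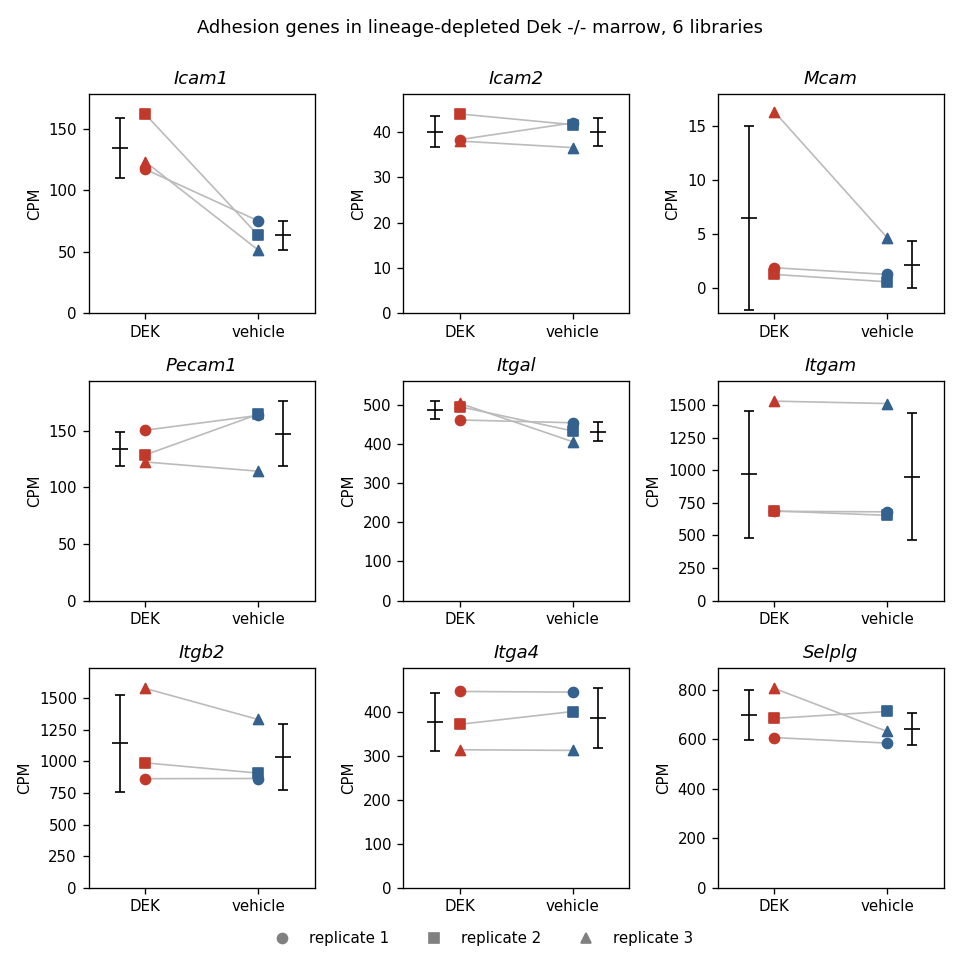
Level of each of the 9 adhesion genes in CPM (linear axis) in DEK and vehicle libraries. Symbols give the replicate number, grey lines join equal numbers, and bars beside the points are the mean ± SD of 3 libraries. Icam1 is the panel in which the groups are furthest apart for their spread, and in the Mcam and Itgam panels replicate 3 is far above replicates 1 and 2 in both groups.

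Icam2, whose product is a further LFA-1 ligand, gave closely matching levels in the groups. Its gene is on chromosome 11 from 106377656 to 106382641, minus strand. It stood at 38.3, 44.0 and 38.0 CPM in the DEK libraries, and at 42.0, 41.6 and 36.6 CPM in the vehicle libraries, so the groups overlapped. The log2 fold change within pairs was 0.00059 with a 95% interval of -0.22 to 0.22 (adjusted p = 0.999, edgeR). Per exon length, Icam1 stood above Icam2 in all DEK libraries, by ratios of 1.37, 1.66 and 1.46, and below it in all vehicle libraries, at ratios of 0.804, 0.686 and 0.633.

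Pecam1 (chromosome 11, 106654213 to 106715281, minus strand) stood at 150, 129 and 122 CPM in DEK replicates 1, 2 and 3, and at 163, 164 and 114 CPM in vehicle replicates 1, 2 and 3. The groups overlapped, and the lowest library was vehicle replicate 3. Its log2 fold change within pairs was -0.13, with a 95% interval of -0.35 to 0.10 (adjusted p = 0.699, edgeR). The pair differences were -0.12, -0.36 and 0.10 on the log2 CPM scale.

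Mcam was a weakly expressed gene whose counts came mostly from the libraries numbered 3. The gene lies on chromosome 9 from 44134658 to 44142726, plus strand, with 16 exon blocks free of other genes. It had 84, 64 and 704 counts in DEK replicates 1, 2 and 3, and 62, 23 and 156 in vehicle replicates 1, 2 and 3. In CPM these are 1.88, 1.26 and 16.3 with DEK, and 1.26, 0.575 and 4.64 with vehicle. The groups overlapped, because vehicle replicate 3 was above DEK replicates 1 and 2, yet within every pair the DEK library was the higher one.

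The rise of Mcam within pairs was 2.37-fold (log2 1.24 ± 0.26, SE; adjusted p = 0.0421, edgeR), with log2 CPM differences of 0.56, 1.07 and 1.80 in pairs 1, 2 and 3. Without the block its interval was wide, from -1.33 to 4.52 around 1.59 on the log2 scale (edgeR, adjusted p = 1.00). One library of each group decided that value: leaving out DEK replicate 3 gave -0.46 and leaving out vehicle replicate 3 gave 2.81. The call within pairs ended without pair 3 (log2 0.82, adjusted p = 0.303, edgeR) and without pair 2 (1.29, adjusted p = 0.725, edgeR), and it held without pair 1 (1.58, adjusted p = 0.0151, edgeR).

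Marker lists were set beside Mcam. In pair 3, where Mcam stood at 16.3 CPM with DEK and 4.64 CPM with vehicle, the neutrophil markers went both ways. Their sum was 60626 CPM with DEK and 64344 CPM with vehicle, while 5 of the 9 were higher with DEK and 4 lower. The sum is led by S100a9, at 24382 CPM with DEK and 26300 CPM with vehicle. In pairs 1 and 2, 7 and 4 of the 9 were higher with DEK. Of the 9, 1 gene, Lcn2, was called higher within pairs, against 0.869% of all genes tested. Endothelial markers such as Cdh5, Kdr and Tek summed to 26.3 to 30.5 CPM in the DEK libraries and to 21.3 to 31.4 CPM in the vehicle libraries. All 10 had reads, and 5 averaged at least 1 CPM. In pairs 1, 2 and 3, 3, 5 and 8 of the 10 were higher with DEK. Stromal and pericyte markers summed to 52.3 to 68.4 CPM with DEK and to 48.1 to 65.5 CPM with vehicle, with 3 of 10 averaging at least 1 CPM. Of these lists, 7 of 10 endothelial and 5 of 10 stromal and pericyte genes were tested, and none was called within pairs. Erythroid markers summed to 701, 484 and 2757 CPM in DEK replicates 1, 2 and 3. In vehicle replicates 1, 2 and 3 they summed to 659, 624 and 1635 CPM. Of the 7, 4 had reads and 3 averaged at least 1 CPM. In pairs 1, 2 and 3, 1, 1 and 3 erythroid markers were higher with DEK, and 3, 3 and 1 were lower. The part of these cell types in the Mcam result was not tested.

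Among the beta-2 integrins, no member was called, and Itgam and Itgb2 varied more with the replicate number than with treatment. Itgam (chromosome 7, 128062640 to 128118491, plus strand) stood at 685, 688 and 1531 CPM in DEK replicates 1, 2 and 3, and at 681, 654 and 1512 CPM in vehicle replicates 1, 2 and 3. Each DEK library lay close to the vehicle library of its number, with log2 CPM differences of 0.0089, 0.074 and 0.018 in pairs 1, 2 and 3. On the log2 CPM scale the libraries numbered 3 were above the mean of numbers 1 and 2 by 1.16 with DEK and by 1.18 with vehicle, in step with the neutrophil markers given above. The log2 fold change within pairs was 0.03, with a 95% interval of -0.18 to 0.24 (adjusted p = 0.931, edgeR), while without the block the interval ran from -1.10 to 1.16.

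Itgb2 (chromosome 10, 77530348 to 77565674, plus strand) stood at 863, 989 and 1579 CPM in DEK replicates 1, 2 and 3, and at 865, 908 and 1332 CPM in vehicle replicates 1, 2 and 3. Both libraries numbered 3 were the highest of their group, and the groups overlapped. Its log2 fold change within pairs was 0.12, with a 95% interval of -0.10 to 0.34 (adjusted p = 0.704, edgeR). Without DEK replicate 3 and without the block, its log2 fold change was -0.17.

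Itgal (chromosome 7, 127296260 to 127335137, plus strand) stood at 461, 495 and 503 CPM in the DEK libraries, and at 454, 433 and 405 CPM in the vehicle libraries. The groups did not overlap, but the lowest DEK library was only just above the highest vehicle library. The change was small, at a log2 fold change of 0.18 within pairs with a 95% interval of -0.04 to 0.39, and it did not pass (adjusted p = 0.546, edgeR). The libraries numbered 3 stood at 1.05 times the mean of numbers 1 and 2 with DEK and at 0.915 times with vehicle, against 2.23 and 2.27 times for Itgam. The level of Itgam over that of Itgal, each per exon length, was 1.66, 1.55 and 3.39 in DEK replicates 1, 2 and 3, and 1.68, 1.69 and 4.16 in vehicle replicates 1, 2 and 3.

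Itga4 (chromosome 2, 79255426 to 79333114, plus strand) was the integrin of the set that was lowest in the libraries numbered 3. It stood at 447, 372 and 314 CPM in DEK replicates 1, 2 and 3, and at 445, 401 and 313 CPM in vehicle replicates 1, 2 and 3. The groups covered nearly the same range. The log2 fold change within pairs was -0.03, with a 95% interval of -0.24 to 0.17 (adjusted p = 0.93, edgeR). Exons of Cerkl on the opposite strand share 166 of the 9832 exon bases of Itga4, and the counting used no strand option, so the level of Itga4 is uncertain to that extent. Its beta partner Itgb1 followed the same order, with 474, 440 and 359 CPM in DEK replicates 1, 2 and 3, and 474, 456 and 348 CPM in vehicle replicates 1, 2 and 3. Vcam1, whose product the pair binds, stood at 346, 276 and 197 CPM with DEK, and at 336, 269 and 307 CPM with vehicle (adjusted p = 0.679 within pairs, edgeR).

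Selplg (chromosome 5, 113817798 to 113830501, minus strand) encodes PSGL-1, the ligand of P-selectin. It stood at 606, 683 and 805 CPM in DEK replicates 1, 2 and 3, and at 584, 711 and 631 CPM in vehicle replicates 1, 2 and 3. The groups overlapped, and in pair 2 the vehicle library was the higher one. The log2 fold change within pairs was 0.12, with a 95% interval of -0.12 to 0.35 (adjusted p = 0.733, edgeR).

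**Figure D2:**
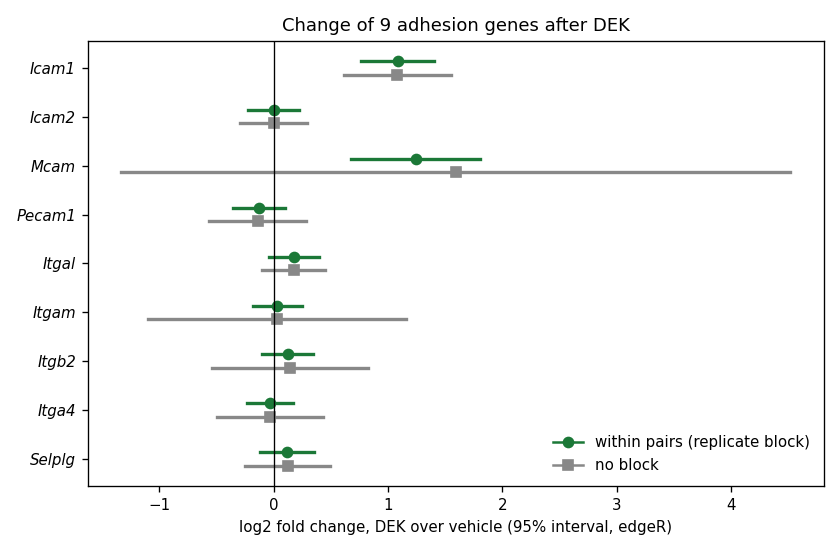
Log2 fold change of DEK over vehicle for each member, with 95% intervals, from edgeR within pairs (green circles) and without the block (grey squares). Icam1 lies at 1.08 in both fits, Mcam has an interval from -1.33 to 4.52 without the block, and the intervals of the other 7 genes include 0 in both fits.

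Read as a group, 2 of the 9 members were called within pairs, both higher, against 1.28% of all genes tested. The members were named with earlier results of these data known, so this count is no independent evidence. The median log2 fold change of the members within pairs was 0.12, and that of all 13803 genes was -0.0028. Of the 9, 2 had groups that did not overlap, Icam1 and Itgal, against 7.19% of all genes in either direction, 3.78% higher and 3.41% lower. In all 3 pairs the DEK library was the higher one for 4 members, Icam1, Mcam, Itgal and Itgam, and the lower one for none, against 16.3% and 17.9% of all genes. The difference in response between Icam1 and the other members was not tested.

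Markers of other cell types moved within the same pairs. Eosinophil markers such as Epx, Prg2 and Prg3 were lower with DEK in every pair, 6 of 6 each time. Their sum was 10270, 7570 and 3043 CPM in DEK replicates 1, 2 and 3, and 13336, 11888 and 4214 CPM in vehicle replicates 1, 2 and 3. Of the 6, Epx and Prg3 were called lower within pairs, against 0.413% of all genes tested. The median log2 fold change of the 6 was -0.49. All 5 tested basophil and mast cell markers (median -0.38) and all 7 megakaryocyte and platelet markers (median -0.19) had values below 0 within pairs, with none called. No marker of the erythroid, B, T and NK, dendritic or stem and progenitor lists was called. The part of these markers in the members' values was not tested.

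Per kilobase of exon, the level that allows genes to be compared, the order over all 6 libraries was led by Itgb2. It averaged 381 ± 104 CPM per kilobase (SD, n = 6 here and in the other levels of this paragraph), followed by Selplg at 257 ± 31.3 and Itgam at 205 ± 93.2. Itgb2 was above Selplg in 6 of 6 libraries, and Selplg was above Itgam in 4 of 6, so the order of that pair depends on the library. Itgal followed at 87.7 ± 7.08, below Itgam and above Pecam1 in every library. Pecam1 (42.2 ± 6.52), Icam1 (38.9 ± 16.7), Itga4 (38.9 ± 6.12) and Icam2 (35.1 ± 2.52) had overlapping ranges, and each was above the next in 3 of 6 libraries. For Icam1 the split followed treatment: it was above Pecam1 and Itga4 in all 3 DEK libraries and below both in all 3 vehicle libraries, averaging 52.9 CPM per kilobase with DEK and 25.0 with vehicle. Mcam was far below at 1.49 ± 2.09, at percentile 23.4 of the genes tested. Among the other alpha chains that pair with Itgb2, Itgax averaged 9.38 and Itgad 0.148 CPM per kilobase. The beta chains that pair with Itga4 averaged 101 (Itgb1) and 104 (Itgb7) CPM per kilobase.

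**Figure D3:**
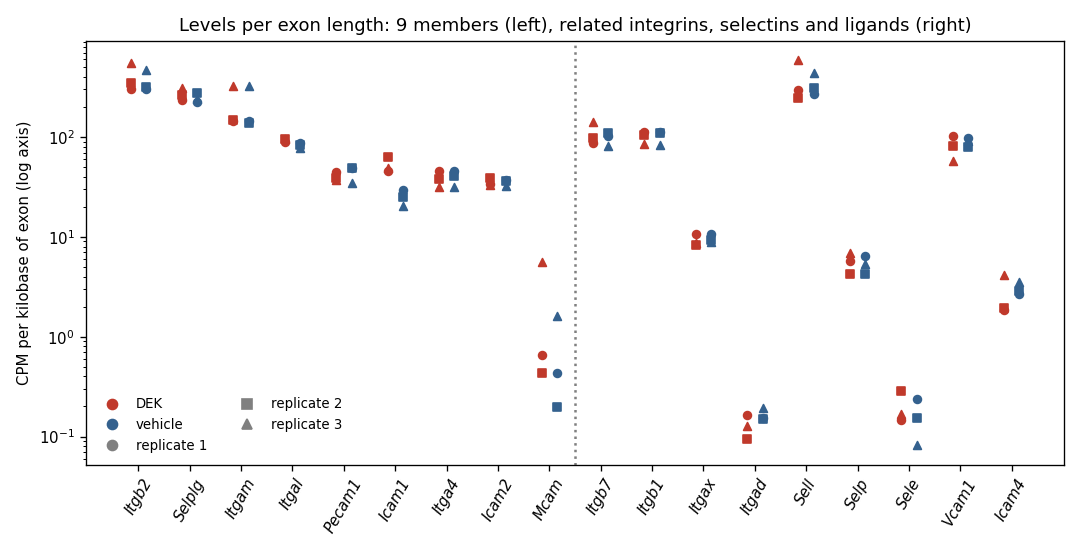
CPM per kilobase of exon (log axis) in each of the 6 libraries for the 9 members, ordered by mean, and for related integrins, selectins and ligands right of the dotted line. The level of Itgb2 averaged 381 CPM per kilobase and that of Mcam 1.49, and the 6 libraries of Mcam spread more widely than those of any other member.

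For each member, the genes nearest in pattern were sought among 12108 others with a mean of at least 1 CPM. Nearness was the root mean square difference between the centred log2 CPM values of the 6 libraries. The values of Icam1 were nearest to those of Relb, Sod2 and Nfkb2, at differences of 0.054, 0.108 and 0.117, small beside the spread of Icam1 itself of 0.583. Those of Itgam were nearest to Arhgap4, Cdk12 and 2310001H17Rik (0.044, 0.044 and 0.057, spread 0.551), and those of Itgb2 to Rinl, Dlgap4 and Capn1 (0.024, 0.033 and 0.037, spread 0.335). Mcam was nearest to Il1f9, Ptgs2 and Hcar2, at 0.386, 0.398 and 0.399. These differences were the largest of any member, but so was its own spread of 1.53. Among the genes that varied less, the nearest were Slc20a2 for Icam2, Lig4 for Pecam1, Ankfy1 for Itgal, Cbll1 for Itga4 and 2310047M10Rik for Selplg. Among the members, Itga4 and Pecam1 were nearest to each other (0.0965), and Itgam was nearest to Itgb2 (0.248).

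**Figure D4:**
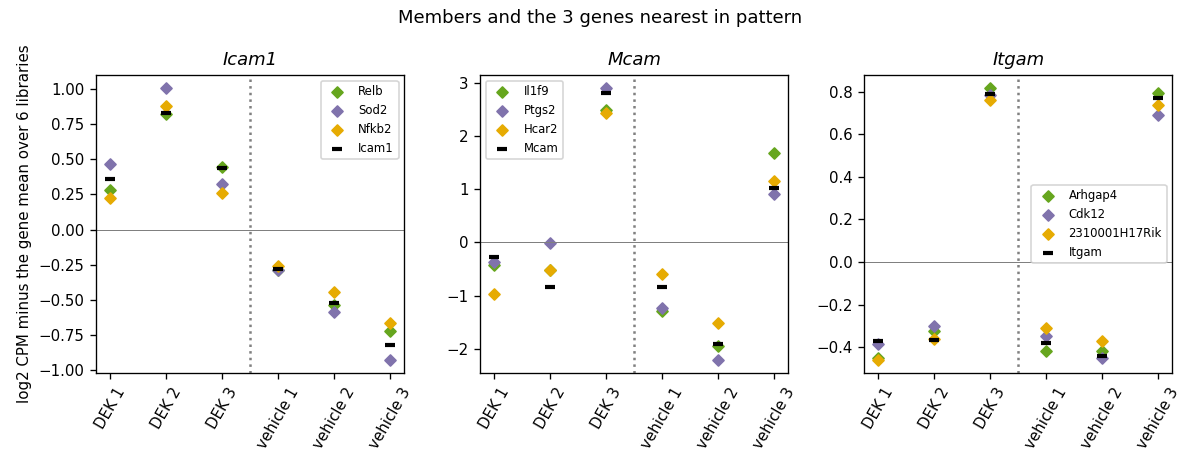
Log2 CPM minus each gene's mean over 6 libraries, for Icam1, Mcam and Itgam (black bars) and the 3 genes nearest to each in pattern (coloured diamonds). Icam1 and its neighbours are above their mean in all 3 DEK libraries and below it in all 3 vehicle libraries, while Itgam and its neighbours are high in replicate 3 of both groups.

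Other genes of leukocyte adhesion were read from 5 lists, in which 97 of 104 genes were tested. None was called without the block. Within pairs 2 of the 97 were called, 1 higher and 1 lower, against 177 of all 13803 genes tested (1.28%). The median log2 fold change of the 97 was -0.00092. The gene that fell was Itgb5, the beta chain of a vitronectin receptor. It stood at 28.0, 29.1 and 23.5 CPM in the DEK libraries, and at 50.5, 55.6 and 33.0 CPM in the vehicle libraries. Its groups did not overlap, as held in this direction for 3.41% of all genes tested. Its log2 fold change within pairs was -0.76 ± 0.12 (SE; adjusted p = 0.00844, edgeR), and only leaving out pair 2 ended the call among the 3 pairs. The gene that rose was Nectin2, listed in the table as Pvrl2, whose product is a nectin of cell contacts. It stood at 17.6, 24.9 and 11.9 CPM in the DEK libraries, and at 10.1, 10.8 and 9.41 CPM in the vehicle libraries. Its log2 fold change within pairs was 0.79 ± 0.17 (SE; adjusted p = 0.0478, edgeR), and leaving out pair 1 or pair 2 ended the call.

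By list, 1 of 19 other integrin subunits was called lower and none higher within pairs, with a median log2 fold change of -0.14. Over all genes tested, 0.413% were called lower and 0.869% higher. Of 23 other immunoglobulin-type genes, 1 was higher, with a median of -0.03. None of 17 selectins and selectin ligand genes passed (median -0.02), none of 25 integrin activation genes (median 0.04) and none of 13 proteases that cut adhesion molecules (median 0.10). In the selectin list the smallest p-values belonged to the tyrosylprotein sulfotransferase genes Tpst1 and Tpst2, whose enzymes sulfate proteins such as PSGL-1, at 0.61 and 0.19 on the log2 scale (edgeR within pairs, adjusted p = 0.0705 and 0.479). Tpst1 stood at 17.2, 19.7 and 27.0 CPM with DEK, and at 13.8, 13.8 and 13.5 CPM with vehicle. Its groups thus did not overlap, as held in this direction for 3.78% of all genes tested. Among activation genes, Skap1 and Tln2 came first, at -0.28 and 0.54 (adjusted p = 0.573 and 0.575, edgeR within pairs). Among proteases these were Adam9 at 0.33 and the neutrophil collagenase gene Mmp8 at 0.34 (adjusted p = 0.135 and 0.276, edgeR within pairs). Without pair 3, 6 partner genes were called, 4 higher and 2 lower, which were Itga1, Itga5, Itgb5, Gcnt1, Nectin2 and Tln2. In that setting 641 of 13809 genes tested were called.

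**Figure D5:**
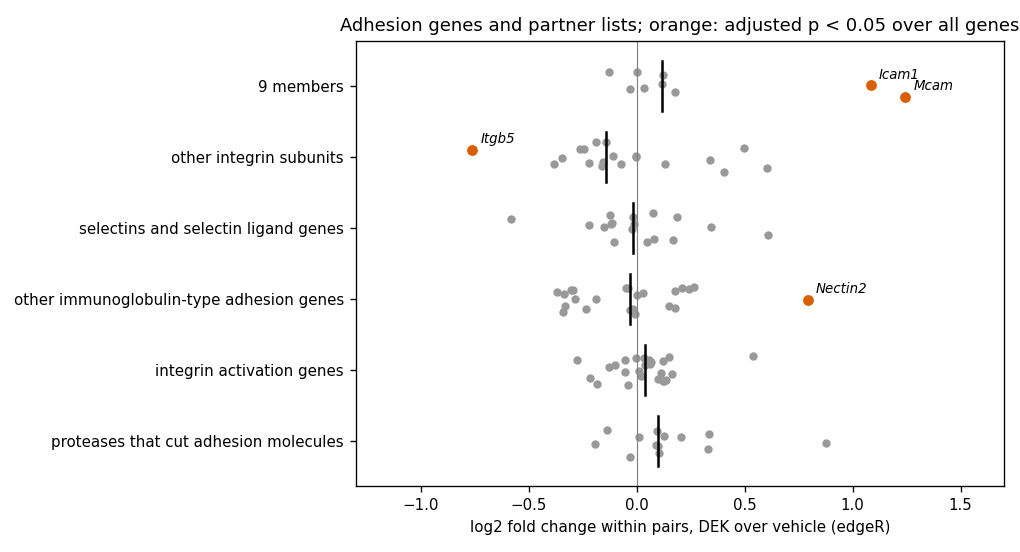
Log2 fold change of DEK over vehicle within pairs (edgeR) for the 9 members and for 5 lists of related adhesion genes, one point per gene tested, with the median of each list as a black line. Orange points have an adjusted p under 0.05 over all genes: Icam1, Mcam and Nectin2 to the right of 0 and Itgb5 to the left.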

How the data were processed

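RNA of 6 libraries, 3 given DEK and 3 given vehicle, was read from 1 deposited table of raw counts per gene. Per the file headers, the authors counted reads over exons with featureCounts 1.6.1 on STAR alignments and an mm10 annotation, with no strand option, although the labels name a strand-specific kit. The submitters' processing notes name HTSeq in place of featureCounts, and also Trim Galore and edgeR. Exon lengths came from the same deposited table.

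Counts were scaled by TMM, genes with low counts were removed by filterByExpr (13803 of 24421 kept), and DEK was tested against vehicle with edgeR 4.0.16 (glmQLFit and glmQLFTest, robust, R 4.3.3), with Benjamini-Hochberg adjustment over all genes and a threshold of 0.05. Standard errors were the log2 fold change over the root of F, and intervals cover 95%. Log2 CPM used a prior count of 2. Alternatives were a replicate block, DESeq2 1.42.0, limma-voom (limma 3.58.1), other size factors, no filter and leaving libraries out.

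No label ties equal replicate numbers to a shared animal, litter or day. Deviations from the group means correlated at 0.55, 0.56 and 0.80 between libraries numbered 1, 2 and 3 in both groups, all over 0.1, so the numbers were taken to pair the samples. Unequal numbers 1 and 2 also correlated (0.52 and 0.41), and any number against 3 gave -0.69 to -0.59. The pairing thus comes from the data. The common spread between libraries (edgeR's biological coefficient of variation) fell to 13.1% with the block, against 33.1% in its absence. P-values without the block measure the spread between these libraries. Those within pairs measure the spread left after the replicate number is taken out. Either spread may be technical.

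The members and all gene lists were chosen with earlier results of these data known. All 9 members were named. Of each partner list, up to 4 called genes were named by smallest p, or, where none passed, the 2 with the smallest p within pairs. Of marker lists, the first 3 genes were named. The names Nectin1 to Nectin3 were matched to older symbols by RefSeq synonyms. Ly6g of the neutrophil list had no row.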

Additional observations from a re-analysis of the deposited data

How the results depend on the processing

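Without a replicate block edgeR called 0 genes, 0 members and 0 partner genes. With the block it called 177, 2 and 2. Leaving out pair 1 gave 181, 2 and 3, leaving out pair 2 gave 0 of each, and leaving out pair 3 gave 641, 1 and 6. DESeq2 called 58 genes and 1 member, Icam1. Leaving out 1 library without the block gave 0 to 1 genes, and limma-voom, other size factors and no filter gave 0. In alternatives added after seeing the data, leaving out both libraries numbered 3 without the block called 168 genes, 1 member (Icam1) and 3 partners, and DESeq2 with the block called 347, 2 and 4. The causes of these differences were not tested.

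Icam1 and Itgal kept their direction in every alternative, and the log2 fold change of Icam1 ran from 0.92 to 1.30. Values near 0 changed sign: Icam2 was -0.0016 by limma-voom, -0.028 and -0.026 within pairs without pair 2 and pair 3, -0.071 to 0.037 without 1 library and -0.023 without both libraries numbered 3. Itga4 was 0.017 within pairs without pair 2 and -0.17 to 0.082 without 1 library. Pecam1 was 0.00097 within pairs without pair 2. Selplg was -0.0016 within pairs without pair 3 and -0.0073 without both libraries numbered 3. Without the block, leaving out 1 library gave -0.47 to 0.54 for Itgam, -0.17 to 0.37 for Itgb2, -0.46 to 2.81 for Mcam and -0.62 to 1.31 for Mmp8. Mcam rests on 23 to 704 counts a library, and its value without the block moves with the libraries numbered 3.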
